A study of Mus musculus with 6 samples.

Results

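The cytosolic ribosomal proteins are the protein components of the ribosome that translates nuclear-encoded mRNAs. In the TPM table of this mouse heart series, 85 of 24525 gene rows carried a symbol of the Rpl, Rps, Rplp or Rpsa type. Rpl3 and its muscle paralog Rpl3l were set aside, and no S6 kinase row and no row with the pseudogene mark -ps is among the rest. This left 83 members, 50 of the large subunit and 33 of the small subunit, of which 80 (48 and 32) reached the expression filter of 1 TPM in at least 3 libraries. The members were chosen by symbol and not by value, but the group was singled out with the comparison of double knockout (DKO) and wild type (WT) hearts already known. Counts, differences and p-values of that comparison therefore describe these libraries and give no independent support.

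The series holds 6 libraries of total heart RNA, 3 labelled DKO (replicates 7, 8 and 9) and 3 labelled WT (replicates 4, 5 and 6), from mice aged 3 to 6 months. Per the study's design, DKO animals were Mbnl1-/-, Mbnl2 cond/cond and Myh6-Cre+/-. The Myh6 promoter drives Cre in cardiomyocytes, so Mbnl2 is kept in other heart cells, whereas the Mbnl1 null allele is carried by every cell. The labels give WT animals no allele or Cre and do not say whether each library came from 1 animal, so p-values measure the spread between libraries, which may be technical. MBNL1 and MBNL2 are RNA-binding regulators of splicing that are sequestered by expanded CUG repeats in myotonic dystrophy.

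Ribosomal proteins are made in near equal numbers, because each ribosome holds about a single copy of most of them. Their mRNAs are short, abundant and stable, and most begin with a terminal oligopyrimidine (TOP) tract, a C followed by a run of C and T at the 5′ end. Through this tract the cap-binding protein LARP1 and the kinase mTOR adjust their translation and stability together. In heart, ribosome content is known to increase when cardiomyocytes grow.

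The start-site sequences of members at both ends of the response are shown because the TOP tract is what these mRNAs are known to share. Each line gives 10 bases before and 20 bases from the RefSeq start of GRCm38.p6 (the first listed start where there are several), 5′ to 3′ on the coding strand, with the longest run of at least 5 pyrimidines that begins with C in capitals. The first 5 had the largest log2 differences among members above 100 TPM with a start in the RefSeq table, and the last 5 the smallest.
Rps26 (chr10:128626487-128626516, minus strand): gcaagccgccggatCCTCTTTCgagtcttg
Rpl36a (chrX:134585644-134585673, plus strand): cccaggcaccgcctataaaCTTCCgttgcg
Rps24 (chr14:24490668-24490697, plus strand): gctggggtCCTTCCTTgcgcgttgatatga
Rps28 (chr17:33824543-33824572, minus strand): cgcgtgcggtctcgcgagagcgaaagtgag
Rpl19 (chr11:98026700-98026729, plus strand): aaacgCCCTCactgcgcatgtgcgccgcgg
Rps27 (chr3:90213629-90213658, minus strand): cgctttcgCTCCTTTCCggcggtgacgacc
Rpl36al (chr12:69184048-69184077, minus strand): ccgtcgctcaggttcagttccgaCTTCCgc
Rps13 (chr7:116334171-116334200, minus strand): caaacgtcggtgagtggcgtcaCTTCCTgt
Rplp2 (chr7:141447641-141447670, plus strand): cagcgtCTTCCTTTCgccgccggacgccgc
Rps2 (chr17:24720053-24720082, plus strand): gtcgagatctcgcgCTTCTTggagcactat

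Long runs occur at both ends of the response: 8 bases in Rps26 and Rps24, and 9 bases in Rplp2 and Rps27. Rps28 has no run of 5 in this window, which says only that these letters are not here, since annotated starts can lie some bases from the start in use. The windows of Rps2 and Rpl19 lie inside their RefSeq gene spans (24718121-24721927 and 98022003-98030493), not at the 5′ end of those spans. Whether the start shown for these 2 genes is the start in use was not tested. Among the 63 members with a start in the RefSeq table, 45 (71.4%) have a run of at least 7 pyrimidines that begins with C from 20 bases before to 30 bases after the start, against 28.4% of the genes tested. The motif CCGGAAG on either strand, which ETS factors are known to bind, lies in the 300 bases around the start of 39.7% of these members and of 18.4% of the genes tested. The motifs AAGATGGC (7.94% of members, 5.00% of genes tested) and TATAAA (11.1% and 9.39%), on either strand, differ less in share.

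Facts of the whole series that bear on these values are few. Mbnl1 was lower in DKO hearts, with 102, 108 and 107.5 TPM in DKO 7, 8 and 9 against 161, 159.8 and 145 TPM in WT 4, 5 and 6. Mbnl2 was higher in the DKO libraries, with 227, 239.7 and 245 TPM, against 189, 168 and 149 TPM in the WT libraries (0.49, SE 0.09; limma, adjusted p = 0.0232), a direction that goes against the DKO label. A gene-level TPM does not show which exons were read, so it does not check the deletion in Mbnl2, and DKO and WT name the groups by their labels throughout. The genotype tag of DKO 7 says WT, against its title and source name. Xist stood at 152 TPM in DKO 7 and 174 TPM in DKO 8, which had Y-linked transcripts under 1 TPM, whereas DKO 9 and the 3 WT libraries had Y-linked transcripts at 163 to 179 TPM in sum. Libraries summed to between 999963 and 999991 TPM, and TPM keeps no read depth, so no counting error can be given.

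Ribosomal protein mRNAs made up a larger part of the transcript pool in DKO hearts. The large subunit members took 3.15%, 3.16% and 2.99% of all TPM in DKO 7, 8 and 9, against 2.49%, 2.34% and 2.47% in WT 4, 5 and 6. The small subunit members took 2.30%, 2.26% and 2.16% in the DKO libraries, against 1.80%, 1.73% and 1.81% in the WT libraries. Each DKO library lay above each WT library for both subunits. The means were 3.10% ± 0.0935 in DKO and 2.43% ± 0.0851 in WT for the large subunit, and 2.24% ± 0.0734 and 1.78% ± 0.0419 for the small subunit (SD, n = 3 each), ratios of 1.27 and 1.26. In bulk tissue, more cells of a type and more RNA per cell cannot be told apart.

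Of the 48 large subunit members that passed the filter, 35 were higher and 0 lower in DKO (limma, Benjamini-Hochberg adjusted p under 0.05), and of the 32 small subunit members 22 were higher and 0 lower. At an unadjusted p under 0.05 (limma), 0 large subunit members and 1 small subunit member (Rps4l) were lower, and 43 and 27 were higher. At that unadjusted threshold, 1593 of all 14541 genes tested were lower and 2328 (16.0%) were higher. At an adjusted p under 0.05, 6.51% of all 14541 genes tested were higher and 4.22% lower, 10.7% in all. On the log2(TPM + 1) scale, the median difference (DKO minus WT) was 0.37 for the large subunit and 0.35 for the small subunit, and 0.03 over all genes tested. The quartiles of the large subunit members were 0.31 and 0.42, and those of the small subunit 0.26 and 0.43, against -0.16 to 0.25 for all genes. Of the 80 members, 78 had a positive difference, where 54.7% of all genes did. The 3 DKO values lay above the 3 WT values in 43 large and 27 small subunit members, as in 19.1% of all genes tested; 1 member (Rps4l) had its groups apart the other way.

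**Figure D1:**
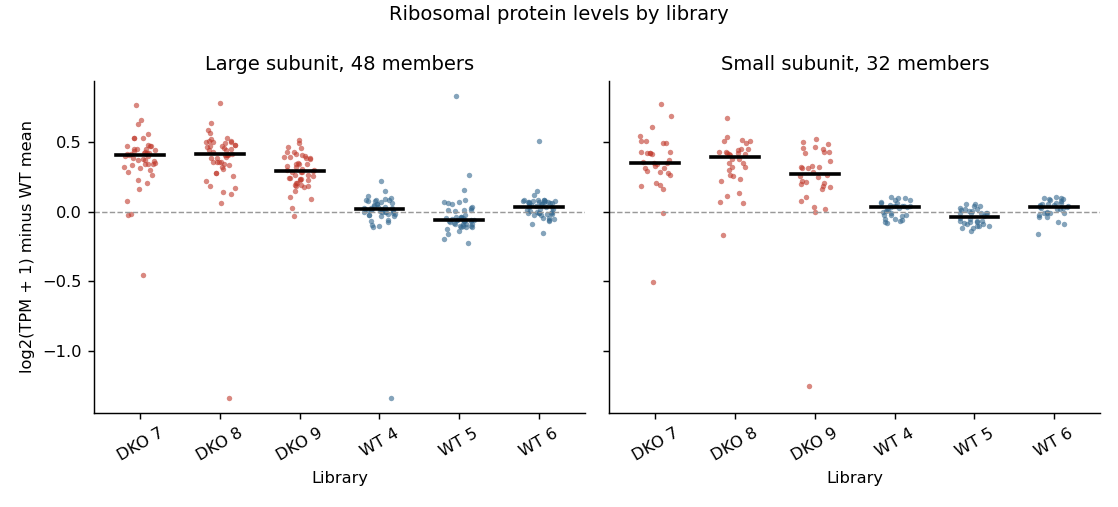
Log2(TPM + 1) of each large subunit member (left, 48 genes) and small subunit member (right, 32 genes) minus that gene's WT mean, by library, with a bar at the median. The DKO medians lie between 0.27 and 0.41 and the WT medians between -0.06 and 0.04, and DKO 9 has the lowest DKO median for both subunits.

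The libraries within a group also differed together. The large subunit median stood 0.41, 0.41 and 0.29 above the WT mean in DKO 7, 8 and 9, and at 0.02, -0.06 and 0.04 in WT 4, 5 and 6. For the small subunit it was 0.35, 0.39 and 0.27 in the DKO libraries, and 0.03, -0.04 and 0.03 in the WT libraries. DKO 9 held the lowest DKO value in 53 of the 80 members and WT 5 the lowest WT value in 51. Haemoglobin, structural and short RNA rows held 12.5% of TPM in WT 5, against 9.96% and 9.6% in WT 4 and 6. With those rows out of the total, all members took 4.76%, 4.65% and 4.74% in WT 4, 5 and 6, against 4.29%, 4.07% and 4.29% as deposited. In DKO 7, 8 and 9 they took 6.07%, 5.99% and 5.66%, against 5.45%, 5.42% and 5.15% as deposited. DKO 9 alone was above all 3 WT libraries for 44 large and 28 small subunit members, and for 37.8% of all genes tested.

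The number of calls depended on single libraries. It was 15, 12 and 25 for the large subunit without DKO 7, 8 and 9, and 18, 16 and 16 without WT 4, 5 and 6. For the small subunit it was 12, 10 and 15 without DKO 7, 8 and 9, and 13, 12 and 12 without WT 4, 5 and 6. The share of all genes tested that was called higher in these fits was 3.55%, 2.34% and 3.52% without DKO 7, 8 and 9 and 4.00%, 3.45% and 3.38% without WT 4, 5 and 6. Of the 57 members called with 6 libraries, 21 stayed called in each of these fits and 11 in none. With a term for the libraries that hold Y-linked transcripts, 0 members were called, as 0.303% of all genes were called higher, and the medians were 0.29 and 0.27; at an unadjusted p under 0.05, 31 large and 17 small subunit members were higher (64.6% and 53.1%), beside 9.25% of all genes. In that fit the difference rests on DKO 9 against the 3 WT libraries, so that sex-linked expression and genotype cannot be told apart for DKO 7 and DKO 8. With DKO 7 counted as WT, as its genotype tag has it, the medians were 0.24 for both subunits and 0 members were called, as 0 of all genes were called higher; at an unadjusted p under 0.05, 4 large and 2 small subunit members were higher (8.33% and 6.25%), beside 7.93% of all genes, shares near that of the whole table. In the libraries with Y-linked transcripts alone, DKO 9 and the 3 WT, 0 members and 0.0575% of all genes were called higher. Without the trend of the variance with level, 11 large and 10 small subunit members were called, beside 4.71% of all genes. Taking haemoglobin, structural and short RNA rows out of the total gave 39 large subunit calls, beside 7.94% of all genes.

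Among the proteins of the stalk and its base, which recruit the GTP-hydrolysing translation factors, members differed. Rplp0, the anchor of the stalk, had 938, 1042 and 978 TPM in DKO 7, 8 and 9 against 757, 690.0 and 776 TPM in WT 4, 5 and 6, a log2 difference of 0.41 (SE 0.07) that passed the threshold. Rpl12, at the base, had 763, 721 and 730.5 TPM in the DKO libraries against 536, 512 and 541 TPM in the WT libraries (0.48, SE 0.06), which passed in each fit that left out a library. The DKO and WT ranges of both genes are apart. Rplp1, the most abundant member, had 1931, 2136 and 2166 TPM in the DKO libraries against 1873, 1434 and 1548 TPM in the WT libraries (0.37, SE 0.11) and did not pass; DKO 7 and WT 4 nearly meet. Its partner Rplp2 overlapped, with 1173, 1239.8 and 1278 TPM in the DKO libraries against 1268, 1105 and 1205 TPM in the WT libraries (0.05, SE 0.07).

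Rpl5 and Rpl11 bind 5S ribosomal RNA in a particle that, when free, is known to restrain the p53 ligase MDM2. Rpl5 had 328, 314 and 312 TPM in the DKO libraries against 263, 231 and 245 TPM in the WT libraries (0.37, SE 0.07). Rpl11 had 657, 609 and 556 TPM in the DKO libraries against 501, 438 and 487 TPM in the WT libraries (0.35, SE 0.08). Both rose with 6 libraries and their groups do not overlap, but Rpl5 stayed called in 1 and Rpl11 in 0 of the 6 fits without a library.

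The proteins that line the peptide exit tunnel or its rim (Rpl4, Rpl17, Rpl39, Rpl23a, Rpl35, Rpl26, Rpl19 and Rpl31) were called in 8 of 8 cases, all higher, and their median was 0.40. Over the large subunit, 35 of 48 were called, with a median of 0.37. In the 6 fits without a library, Rpl39 stayed called in 6, Rpl4 in 5 and Rpl35 in 4. Rpl19 and Rpl23a stayed called in 2 of those fits, and Rpl17, Rpl26 and Rpl31 in 1. Rpl39, a very small protein inside the tunnel, had 734, 749 and 714 TPM in the DKO libraries against 539, 515 and 559.9 TPM in the WT libraries (0.45, SE 0.06). Rpl17, at the constriction, had 657, 621 and 586 TPM in the DKO libraries against 483, 382 and 486 TPM in the WT libraries (0.47, SE 0.11), with WT 5 well below the other 2. Rpl23a, at the rim where the nascent chain leaves, had 1369.5, 1256 and 1258 TPM in the DKO libraries against 1054, 979 and 993 TPM in the WT libraries (0.36, SE 0.06). Rpl35 beside it had 1316, 1191 and 1282 TPM in the DKO libraries against 978, 981 and 983 TPM in the WT libraries (0.36, SE 0.06). Its WT values lay within 6 TPM of each other, and the 2 groups are far apart.

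Rpl19, Rpl24 and Rpl41 take part in bridges between the subunits, and 2 of the 3 were called. Rpl24 had 626, 572 and 548 TPM in the DKO libraries against 487, 451 and 504 TPM in the WT libraries (0.28, SE 0.07) and did not pass (limma, adjusted p = 0.0631). Rpl19 had the second largest difference of the large subunit (0.52, SE 0.10), with 778, 730.5 and 624 TPM in the DKO libraries against 503, 458 and 520.4 TPM in the WT libraries. Rpl41, a very short peptide in the bridge, had 1457, 1564 and 1383 TPM in the DKO libraries against 1115, 1048 and 1105 TPM in the WT libraries (0.43, SE 0.07), and passed in all 6 fits without a library. At the tRNA sites, Rpl10, which reaches towards the peptidyl-tRNA site, had 939, 959 and 798 TPM in the DKO libraries against 679, 648 and 706 TPM in the WT libraries (0.40, SE 0.09). Rpl7 (0.45, SE 0.06) and Rpl27 (0.49, SE 0.06), which bind ribosomal RNA in the body of the large subunit, were also among the calls with the smallest p. At the low end of the large subunit, Rpl34 was at 0.20 (SE 0.06) and Rpl36 at 0.14 (SE 0.08), and neither passed.

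In the small subunit, Rps26, Rps28 and Rpsa lie near the mRNA exit and were called. Rps26, which contacts mRNA just upstream of the exit-site codon, had 797, 741 and 642 TPM in the DKO libraries against 439, 462 and 497 TPM in the WT libraries, the largest difference of any member (0.64, SE 0.09). Rps28 next to it had 1389.7, 1302 and 1294 TPM in the DKO libraries against 912, 869 and 961 TPM in the WT libraries (0.54, SE 0.06). Rpsa had 463, 468 and 444 TPM in the DKO libraries against 343, 319 and 327 TPM in the WT libraries (0.48, SE 0.06). These 3 were called in each fit that left out a library, and their groups are well apart.

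At the mRNA entry channel, formed by Rps2, Rps3 and Rps9, 1 of 3 was called. Rps9 was at 0.42 (SE 0.06), while Rps3 at 0.26 (SE 0.08) did not pass. Rps2 had 1189, 1296 and 1229 TPM in the DKO libraries against 1281, 1152 and 1167 TPM in the WT libraries (0.05, SE 0.07), so that the groups overlap. The 9 proteins of the head had 7 calls and a median of 0.35, beside 22 of 32 and 0.35 over the small subunit. Rps12, at the beak of the head, had 966, 934 and 938 TPM in the DKO libraries against 672, 704 and 679 TPM in the WT libraries (0.47, SE 0.05), with the smallest p of all members (limma, adjusted p = 0.00565). Rps29, also of the head, did not pass (0.28, SE 0.09).

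Other small subunit members ran from near 0 to the top of the range. Rps24 had 1119, 1009.6 and 999 TPM in the DKO libraries against 702, 664 and 722 TPM in the WT libraries (0.58, SE 0.07). Rps25, which some viral internal ribosome entry sites need, had 664, 607 and 637 TPM in the DKO libraries against 465, 430.4 and 471 TPM in the WT libraries (0.48, SE 0.06). Rps27a, made as a fusion with ubiquitin, had 567, 577 and 568 TPM in the DKO libraries against 428, 425 and 417 TPM in the WT libraries (0.43, SE 0.05), the smallest SE of the 80 members. Rps13 overlapped, with 640.1, 628 and 571 TPM in the DKO libraries against 589.7, 560.2 and 568 TPM in the WT libraries (0.10, SE 0.06).

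**Figure D2:**
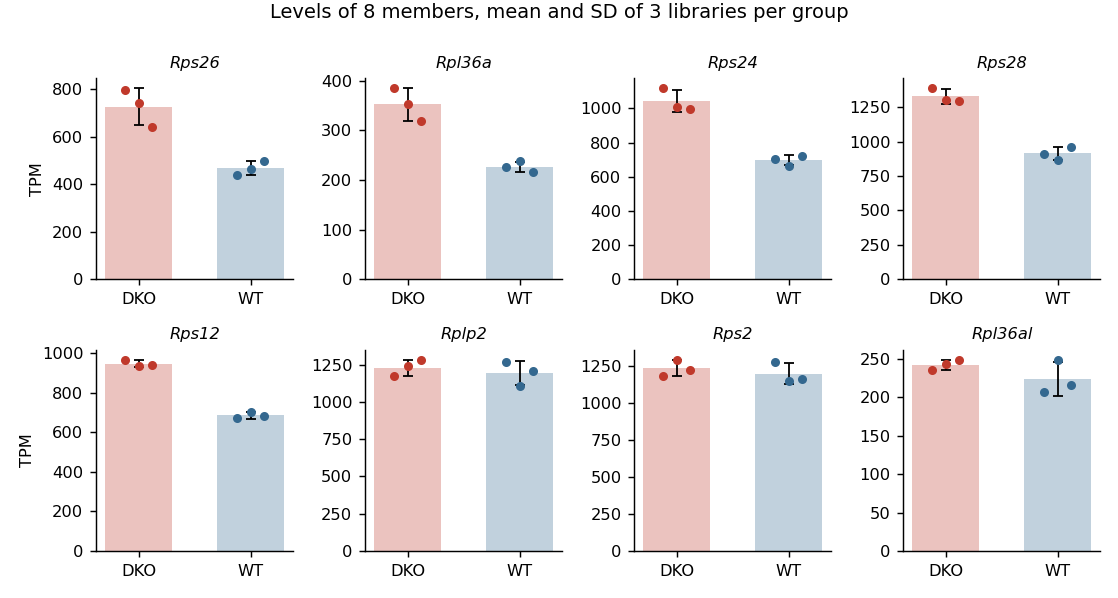
TPM of 8 members in DKO (left) and WT (right) libraries, with points for libraries, bars for the mean and error bars for the SD of 3 libraries. In Rps26, Rpl36a, Rps24, Rps28 and Rps12 the 3 DKO points lie above the 3 WT points, and in Rplp2, Rps2 and Rpl36al they overlap.

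The 4 X-linked members were all called, beside 57 of the 80 tested members. Rpl36a had 385, 353 and 319 TPM in DKO 7, 8 and 9 against 225, 237 and 217 TPM in WT 4, 5 and 6 (0.63, SE 0.08). Rps4x had 849, 845 and 869.6 TPM in the DKO libraries against 653, 628 and 615 TPM in the WT libraries (0.43, SE 0.05). DKO 9, the DKO library with Y-linked transcripts, was the lowest of its group for Rpl10, Rpl36a and Rpl39 and the highest for Rps4x. Over all tested members, DKO 9 was the lowest DKO library in 53 of 80. Sex-linked expression and genotype cannot be told apart for DKO 7 and DKO 8, and the part of either in these values was not tested. Rps4x was called in each fit that left out a library, and Rpl10 in 1 of 6.

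Paralog pairs did not move alike. Rpl36al, an autosomal copy of Rpl36a, had 236, 244 and 248 TPM in the DKO libraries against 207, 249 and 217 TPM in the WT libraries (0.12, SE 0.08). It therefore held 37.9%, 40.8% and 43.8% of the pair's TPM in DKO 7, 8 and 9, against 47.9%, 51.2% and 49.96% in WT 4, 5 and 6, with the groups apart. In the Rps27 pair the share of the copy was higher in DKO. Rps27l, known in human cells as a p53 target, had 301, 289 and 253 TPM in the DKO libraries against 225, 198 and 210.4 TPM in the WT libraries (0.41, SE 0.09). Rps27 had 1416, 1221 and 1182 TPM in the DKO libraries against 1148, 1170.0 and 1184 TPM in the WT libraries (0.12, SE 0.08). Rps27l held 17.5%, 19.1% and 17.6% of that pair's TPM in the DKO libraries and 16.4%, 14.5% and 15.1% in the WT libraries. Reads that fit both copies of a pair are split by estimate, so these shares carry an error that the files do not give.

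The remaining copies were low. Rps4l, a transcribed pseudogene in RefSeq, had 18.4, 23.5 and 10.5 TPM in the DKO libraries against 28.6, 27.6 and 23.6 TPM in the WT libraries (-0.64, SE 0.27) and did not pass, though its DKO values all lay below its WT values. Its share of the TPM of Rps4l and Rps4x was 2.12%, 2.70% and 1.19% in the DKO libraries against 4.20%, 4.20% and 3.69% in the WT libraries, with the groups apart. It was 1 of 2 tested members with a negative difference. The other, Rpl32l, lay between 0 and 3.49 TPM (-0.57, SE 0.63) and passed the filter through DKO 9 and 2 WT libraries. Rpl37rt, a retrotransposed copy, had 34.3, 60.3 and 33.9 TPM in the DKO libraries and 32.1, 41.8 and 31.0 TPM in the WT libraries. The 3 members under the filter were Rpl10l, listed at 0 in all 6 libraries, Rpl39l, listed at 1.11 TPM in WT 6 and at 0 elsewhere, and Rps27rt, under 0.001 TPM in each library.

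**Figure D3:**
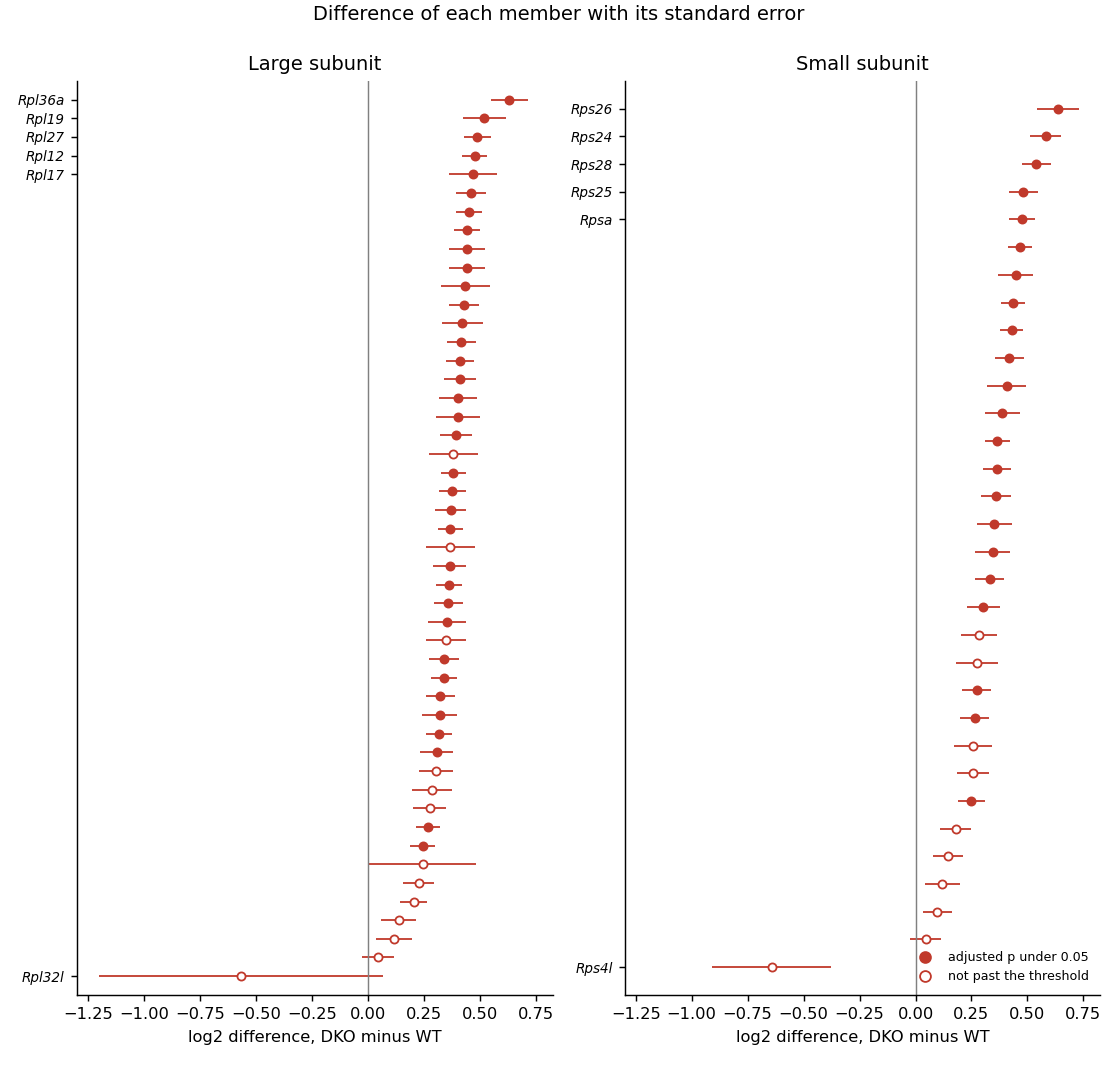
Log2 difference (DKO minus WT, log2(TPM + 1) scale) of each of the 48 large subunit members (left) and 32 small subunit members (right) that passed the filter, with its standard error, sorted by size, with names for the 5 largest and the lowest of each subunit. Filled points are past the threshold of 0.05 (35 and 22 members), and the 2 points left of 0 are Rpl32l and Rps4l.

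Levels per transcript length varied far more between members than between groups. Of the 83 members, 74 were above 100 TPM in all 6 libraries, and the members that passed the filter had a median of the group means of 636 TPM in DKO and 496 TPM in WT. The highest of the large subunit were Rplp1, Rpl41, Rplp2, Rpl23a and Rpl35, and the first 3 of the small subunit Rps27, Rps2 and Rps28. Of these 8, Rplp1, Rplp2, Rps27 and Rps2 did not pass. At the low end, picked after seeing the values, Rps15a had 46.9, 46.0 and 41.9 TPM in the DKO libraries against 35.4, 37.3 and 37.5 TPM in the WT libraries, and Rps20 had 78.7, 83.9 and 77.2 TPM in the DKO libraries against 60.7, 63.9 and 61.4 TPM in the WT libraries. The order of levels was nearly the same in both groups (Spearman's rho 0.99 across the 80 genes, which share libraries). Such levels may be lowered where reads also fit a processed copy; the table has 7 rows with a member's symbol and the mark -ps, all under 27 TPM.

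Members are spread over 19 chromosomes, and 28 of the 83 (33.7%) have a small nucleolar RNA gene inside their span on the same strand (GENCODE M21), against 2.47% of the genes tested. Small nucleolar RNAs guide modification of ribosomal RNA and are mostly cut from introns of such hosts. The median log2 difference was 0.38 in the 28 host members and 0.35 in the 52 other tested members.

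Ribosomal protein genes with other symbols, outside the pattern, ranged from -0.14 to 0.41 in log2 difference, with 2 of 6 called. Over all genes tested, 10.7% were called. Rps3a1, a small subunit protein, had 914, 935 and 901 TPM in the DKO libraries against 724.5, 651 and 700.4 TPM in the WT libraries (0.41, SE 0.06; limma, adjusted p = 0.0115). Rack1, a signalling scaffold on the head of the small subunit, averaged 456 ± 17.6 TPM in DKO and 356 ± 17.0 TPM in WT (SD, n = 3 each; 0.36, SE 0.06).

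The median of 14 TOP mRNAs that do not code for ribosomal proteins was 0.26. Of the 14, 5 were higher and 0 lower, beside 6.51% and 4.22% of all genes. Among them were Npm1, a nucleolar assembly chaperone (225 ± 5.71 TPM in DKO and 179 ± 9.61 TPM in WT), and the initiation factor subunit Eif3h (244 ± 9.68 and 194 ± 8.37 TPM; SD, n = 3 each). The number called in this list was 0 without DKO 7, DKO 8 or DKO 9, and 2, 0 and 1 without WT 4, 5 and 6. With all 6 libraries, 64.3% of the list were higher at an unadjusted p under 0.05, beside 16.0% of all genes. The noncoding hosts of small nucleolar RNAs, whose transcripts are also of the TOP kind in several cases, gave 2 higher and 0 lower of 8, with a median of 0.53. Zfas1 averaged 29.8 ± 3.12 TPM in DKO and 18.5 ± 2.96 TPM in WT, and Snhg8 19.5 ± 1.97 and 13.7 ± 0.421 TPM (SD, n = 3 each). That count was 0 without DKO 8 or WT 6 and 1 without DKO 9 or WT 5. Of these hosts, 75.0% were higher at an unadjusted p under 0.05 with all 6 libraries, beside 16.0% of all genes.

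Of 36 initiation factor genes 3 were higher and 3 lower, with a median of 0.07, beside 6.51% and 4.22% of all genes. This list shares 4 genes with the TOP list (Eif3e, Eif3f, Eif3h and Eif4b), and 2 of its 3 higher calls, Eif3e and Eif3h, are already counted there. Eif1, which guards start codon choice, averaged 638 ± 28.6 TPM in DKO and 888 ± 16.7 TPM in WT (-0.48, SE 0.06; limma, adjusted p = 0.00673), and Eif4a2, a helicase of the cap complex, 226 ± 6.54 and 293 ± 6.53 TPM (SD, n = 3 each; -0.37, SE 0.06). The count of 6 was 3 without DKO 7, DKO 8, WT 4 or WT 5. With all 6 libraries, 38.9% of the initiation factor genes had an unadjusted p under 0.05, beside 27.0% of all genes. Of 47 ribosome assembly factors 0 were called by limma, with a median of 0.08 and 8 (17.0%) at an unadjusted p under 0.05, beside 27.0% of all genes, and 2 passed when haemoglobin, structural and short RNA rows were taken out of the total. The 2 with the smallest p were Nhp2, a core protein of pseudouridylation particles (29.6 ± 3.04 TPM in DKO and 18.7 ± 4.00 TPM in WT; 0.65, SE 0.17; limma, adjusted p = 0.0569), and Nop10 of the same particles (92.6 ± 1.27 and 78.4 ± 3.35 TPM; SD, n = 3 each; 0.24, SE 0.06).

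The RNA polymerase I machinery, which makes ribosomal RNA, gave 1 higher and 1 lower of 15, with a median of 0.02. Over all genes tested, 6.51% were higher and 4.22% lower. At an unadjusted p under 0.05 (limma) the list had 26.7%, beside 27.0% of all genes, a share near that of the whole table. Taf1a, a subunit of its promoter selectivity factor, fell to 8.57, 9.36 and 9.93 TPM in DKO 7, 8 and 9, against 21.6, 22.7 and 19.7 TPM in WT 4, 5 and 6 (-1.12, SE 0.11; limma, adjusted p = 0.00411). Polr1c, a subunit shared with RNA polymerase III, averaged 20.4 ± 1.14 TPM in DKO and 14.5 ± 0.258 TPM in WT (SD, n = 3 each). The Taf1a call held in each fit that left out a library and that of Polr1c in none, so that the count was 1 in each of them. Of the 5 chaperones of ribosomal proteins 0 were called by limma and 1 had an unadjusted p under 0.05, with Aamp at -0.19 (SE 0.07) and Bccip at 0.20 (SE 0.08).

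Of 14 genes of mTOR, LARP1 and MYC signalling, 1 was higher and 0 lower, with a median of -0.03. Eif4ebp1, the repressor of the cap-binding protein eIF4E that mTOR inactivates, had 138, 159 and 154 TPM in the DKO libraries against 90.0, 88.1 and 98.3 TPM in the WT libraries (0.70, SE 0.08; limma, adjusted p = 0.00588). Myc had 5.76, 6.82 and 6.67 TPM in the DKO libraries against 4.497, 1.55 and 2.27 TPM in the WT libraries (1.05, SE 0.29) and missed the threshold (limma, adjusted p = 0.0652). This list had 2 calls without WT 4. With all 6 libraries, 21.4% of its genes had an unadjusted p under 0.05, beside 27.0% of all genes.

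Mitochondrial ribosomal proteins, which serve the separate ribosome of mitochondria, gave 2 higher and 5 lower of 78, with a median of -0.08. Over all genes tested, 6.51% were higher and 4.22% lower. At an unadjusted p under 0.05 (limma) the list had 25.6% in either direction, beside 27.0% of all genes, a share near that of the whole table. By direction, 5 of the 78 were higher and 15 lower at that threshold, beside 2328 and 1593 of all 14541 genes tested. Mrpl28 had 104, 109.7 and 113 TPM in the DKO libraries against 164, 178 and 169 TPM in the WT libraries (-0.64, SE 0.06), and Mrpl55 averaged 66.8 ± 6.21 TPM in DKO and 99.5 ± 5.60 TPM in WT (SD, n = 3 each). The 7 calls became 13 with haemoglobin, structural and short RNA rows taken out of the total, where all genes gave 1987 against 1560. The number of calls was 3 without DKO 7, DKO 9, WT 4 or WT 5 and 4 without DKO 8 or WT 6.

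**Figure D4:**
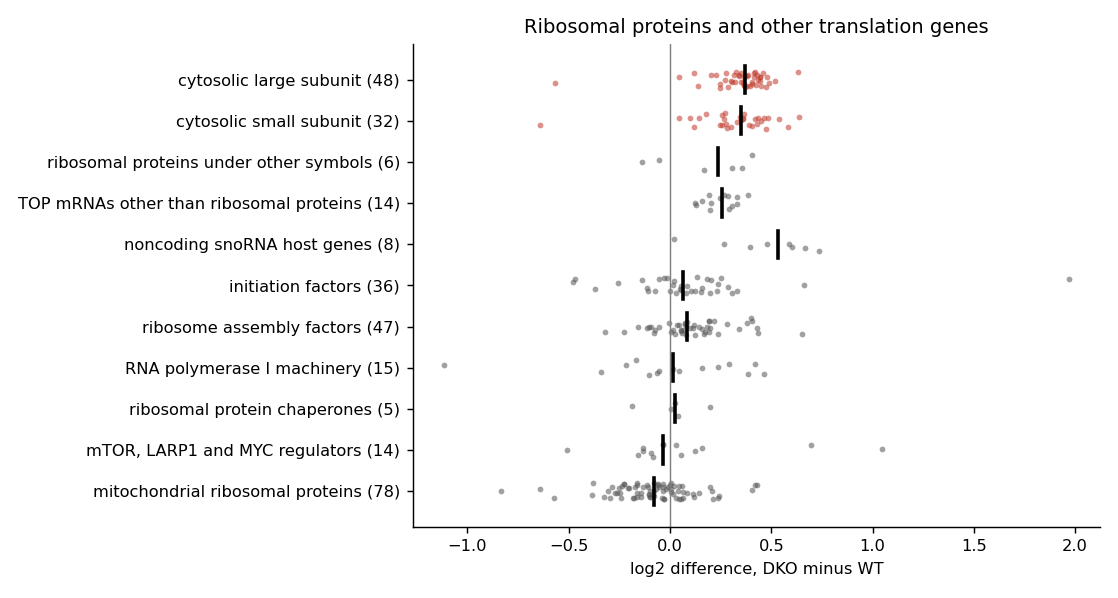
Log2 difference (DKO minus WT, log2(TPM + 1) scale) of each tested gene of the cytosolic ribosomal proteins (red) and of 9 other translation lists (grey), with the number tested in brackets and a bar at the median. The medians are 0.37 and 0.35 for the large and small subunit, 0.26 for the other TOP mRNAs and -0.08 for the mitochondrial ribosomal proteins.

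Summed markers of cycling cells, macrophages, cardiomyocytes and endothelial cells were apart between the groups, and those of fibroblasts, smooth muscle, lymphocytes and erythroid cells overlapped. The calls below stand beside 6.51% higher and 4.22% lower of all genes tested. Cycling cell markers summed to 30.4 to 37.3 TPM in DKO and 13.6 to 16.4 TPM in WT, with 4 of 6 higher and none under 1 TPM in all libraries. Macrophage markers summed to 414 to 558 TPM in DKO and 197 to 300.4 TPM in WT, with 5 of 8 higher and 1 lower. Fibroblast markers summed to 1810 to 2282 TPM in DKO and 1780 to 1859 TPM in WT, with 4 of 8 higher. Cardiomyocyte markers, which check the tissue label, summed to 51003 to 52036 TPM in DKO and 56155 to 56985 TPM in WT, with 1 of 8 higher and 2 lower. Endothelial markers summed to 1590 to 1643 TPM in DKO and 1710 to 2151 TPM in WT, with 2 of 7 lower. Smooth muscle and pericyte markers ran from 645 to 826 TPM in DKO and from 646 to 696 TPM in WT, with 1 of 6 higher and 1 lower. Acta2 was higher (1.73, SE 0.22) and Tagln lower (-0.83, SE 0.13), so that the overlapping sums hide changes in both directions. Lymphocyte markers ran from 4.31 to 5.64 TPM in DKO and from 4.92 to 12.8 TPM in WT, with 1 of 2 tested lower (Cd79a). Erythroid markers ran from 1781 to 6763 TPM in DKO and from 6043 to 38461 TPM in WT, with 0 of 5 tested called. In the 6 fits without a library, Mki67, Top2a, C1qa, Cd163, Col3a1, Tnni3, Acta2 and Tagln stayed called in all 6. The calls of Ccnb1, Ttn and Cdh5 stayed in 0 of them, and the other marker calls in 1 to 5. The part of the marker differences in the ribosomal protein difference was not tested.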

How the data were processed

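RNA of 6 mouse heart libraries was quantified by the authors as TPM, deposited as 1 table with 1 value per gene symbol and library. The tools named are kallisto 0.44.0 and bcl2fastq and the build is mm10, per the submitters' processing notes; how transcripts were summed to genes, and with which annotation, is not given there. TPM is scaled by length and library total, so an abundant RNA that changes shifts all others, and no depth or counting error can be derived. Groups follow the titles.

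Members were taken by symbol from the table. The whole table was fitted with limma 3.58.1 under R 4.3.3 (lmFit, then eBayes with trend) after genes under 1 TPM in more than 3 libraries were set aside. Values were log2(TPM + 1); p-values were adjusted by Benjamini-Hochberg over 14541 genes, with a threshold of 0.05. The log2(TPM + 1) scale understates changes of low genes. The fit was tested on simulated data. Members and lists were chosen with earlier results of these data known.

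Named members are the 5 highest, the 5 largest and the 5 smallest differences of each subunit, X-linked members, L-suffix copies and their partners, the 5S particle and stalk, and the 12 calls with the smallest p; from each other list the 2 genes with the smallest p. Some members that this rule takes are not reported here. Others, such as Rpl24, were named after their values were seen. Starts and positions are from RefSeq (GRCm38.p6), where 83 members matched the gene table and 63 the promoter table. Plots used matplotlib 3.10.9 and python 3.11.15.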

Additional observations from a re-analysis of the deposited data

How the results depend on the processing

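No paired analysis was possible because the groups share no replicate numbers. Large and small subunit calls numbered 11 and 10 without trend; with replicate 7 as WT, with a term for Y-linked transcripts and in the Y-linked libraries alone they were 0 and 0, where all genes gave 1, 92 and 29 calls against 1560. Without 1 library the calls ranged from 12 to 25 (large), 10 to 15 (small) and 628 to 876 (all genes), with fewer libraries in each fit. The large subunit median was 0.24 with replicate 7 as WT and 0.29 in both Y-linked fits, and the small subunit median 0.24 and 0.27; it stayed positive in every setting run. Pseudocount, filters, median-ratio and quantile scaling, rescaling and array weights kept both counts within 1.5 times. The lowest counts among these came with median-ratio scaling, 25 large and 15 small subunit calls against 35 and 22. There the calls over all genes rose to 1750 from 1560, and the medians were 0.33 and 0.31. The DKO minus WT difference in summed share, recomputed after rescaling and without each library, moved by less than 1 SD. Members that passed in no fit here changed sign: Rpl32l (0.0898) and Rps13 (-0.0025) in both Y-linked fits, Rplp2 (-0.0074, in a range up to 0.0915 over the fits without 1 library) without WT replicate 5 and Rps27 (-0.0281) with replicate 7 as WT. Among values of named members under an alternative, 457 kept direction and side of the threshold, 124 lost and 4 gained the call, and 6 changed sign. The cause of these changes was not tested. TPM keeps no depth, so counting error is unknown.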
